A study of Mus musculus with 8 samples.

Results

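The 4 Control libraries of a mouse study of 8 RNA-seq libraries are described here for what a normal sorted beta cell transcribes. They were chosen by their genotype label, Control, and each carries an animal number of its own, so the replicates were taken as 4 mice. The mice had received tamoxifen, their islets were dispersed, and beta cells were collected by flow sorting. The other 4 libraries, from mice labelled Chd4KO, were not used here. The labels name no strain, age, sex, sorting signal or Cre driver, and do not say whether Control mice carried a Cre transgene. Tamoxifen was common to all 4 mice, so no library stands for an untreated animal.

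Beta cells are the endocrine cells of the pancreatic islet that make and release insulin. Glucose enters through a transporter, is broken down and is burned in mitochondria, which closes potassium channels, opens calcium channels and releases granules. The granule load is made in the endoplasmic reticulum as proinsulin, which is cut by convertases and packed with zinc.

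Levels are in TPM, the reads per base of a gene scaled so that each library sums to the same total. TPM is therefore a share: a gene that takes more leaves less for all others. Reads in genes, recovered from the TPM steps, numbered 16.4 M in replicate 1, 41.0 M in replicate 2, 25.8 M in replicate 3 and 34.6 M in replicate 4. A single read on a gene of 1 kb was worth 0.0540 to 0.141 TPM, and the 3 reads that a count of 0 allows were worth 0.162 to 0.424 TPM. These limits cover counting error only. A gene was counted as transcribed at a mean of at least 1 TPM and silent when it was under 0.1 TPM in all 4 libraries. In sorted bulk RNA, fewer cells of a type and less RNA per cell cannot be told apart.

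The label was checked against 5 defining markers, and all 5 were high in all 4 libraries. Ins2, the insulin gene shared with other mammals, was at 287655, 295519, 304127 and 288793 TPM in replicates 1 to 4. Ins1, the second insulin gene of rodents, was at 93173, 105039, 114018 and 119665 TPM. Iapp, which encodes amylin, the peptide released together with insulin, was at 44226, 45614, 45694 and 47919 TPM. The ranges of these 3 genes did not overlap, and each was highest in 1 library of replicates 3 or 4. Slc2a2, which encodes the glucose carrier GLUT2, was at 145 to 207 TPM. Mafa, a transcription factor of the mature beta cell, was at 154 to 183 TPM. Of 22 markers of the mature beta cell, all 22 had a mean of at least 1 TPM, with a median of 273 TPM. The lowest of the 22 was Trpm5, a cation channel, at 24.9 ± 5.98 TPM (SD, n = 4).

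Ins1 lies on chr19:52264297-52265476 and Iapp on chr6:142298423-142303961, both on the plus strand of GRCm38. Ins2 lies on the minus strand of chr7:142678656-142743381. The 250 bases before the RefSeq start (GRCm38.p6, plus strand) are shown for Ins1 and Iapp because they stand before the most abundant transcripts of these cells after Ins2. The same window of Fos is shown because Fos, an immediate early gene, is among the 20 highest genes and differs most in level between these libraries within that group of 20. Capitals mark CATCTG, letters of the E-box family that factors such as Neurod1 are known to bind, and TATAA, the core of the TATA box, each searched on both strands.
Ins1, chr19:52264047-52264296: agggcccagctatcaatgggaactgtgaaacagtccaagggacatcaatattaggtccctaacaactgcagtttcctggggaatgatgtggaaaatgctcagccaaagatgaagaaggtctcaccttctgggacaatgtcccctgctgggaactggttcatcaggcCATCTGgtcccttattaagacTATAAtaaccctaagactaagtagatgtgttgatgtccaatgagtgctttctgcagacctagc
Iapp, chr6:142298175-142298424: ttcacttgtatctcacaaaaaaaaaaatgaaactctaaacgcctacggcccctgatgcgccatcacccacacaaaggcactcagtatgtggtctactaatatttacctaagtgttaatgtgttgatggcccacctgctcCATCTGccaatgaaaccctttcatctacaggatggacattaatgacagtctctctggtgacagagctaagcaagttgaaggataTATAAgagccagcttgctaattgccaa
Fos, chr12:85473640-85473889: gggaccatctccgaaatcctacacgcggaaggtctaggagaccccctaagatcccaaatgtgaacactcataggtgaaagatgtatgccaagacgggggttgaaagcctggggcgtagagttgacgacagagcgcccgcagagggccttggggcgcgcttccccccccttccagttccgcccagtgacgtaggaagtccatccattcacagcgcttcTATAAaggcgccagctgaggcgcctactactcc

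The Ins1 and Iapp windows each held 1 CATCTG and 1 TATAA, and the Fos window held 1 TATAA and no CATCTG. No 2 of these matches overlapped. Among 20139 windows of the same length, before starts of 16513 protein-coding genes, 12.2% held CATCTG and 19.6% held TATAA. A match describes letters and is not a binding site. Ins2 has no entry in the table of windows.

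The windows also differed with the level of the genes behind them. TATAA stood in 11.9% of 11567 windows of transcribed genes and in 36.1% of 5503 windows of silent genes. Of the 100 protein-coding genes with the highest mean TPM, 75 had windows, and TATAA stood in 25.8% of those 93 windows. The median share of G and C was 60% before transcribed genes and 46.8% before silent ones. Leaving olfactory and vomeronasal receptors out of the silent set gave 29.05% with TATAA and a median G and C share of 49.6%. TATAA holds no G or C, and the part of base composition in its frequency was not tested.

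Secretory transcripts took more than any other class of genes. Ins1 and Ins2 together held 38.1, 40.1, 41.8 and 40.8% of TPM in replicates 1 to 4, a mean of 40.2% ± 1.58 (SD, n = 4). The other islet hormones held 5.22% ± 0.0813, of which Iapp alone held 4.59%. The granins and the enzymes that process prohormones held 4.08% ± 0.265. Of the 21974 protein-coding genes of the annotation, 2 are insulin genes, 10 encode other islet hormones and 16 form the granin class.

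**Figure D1:**
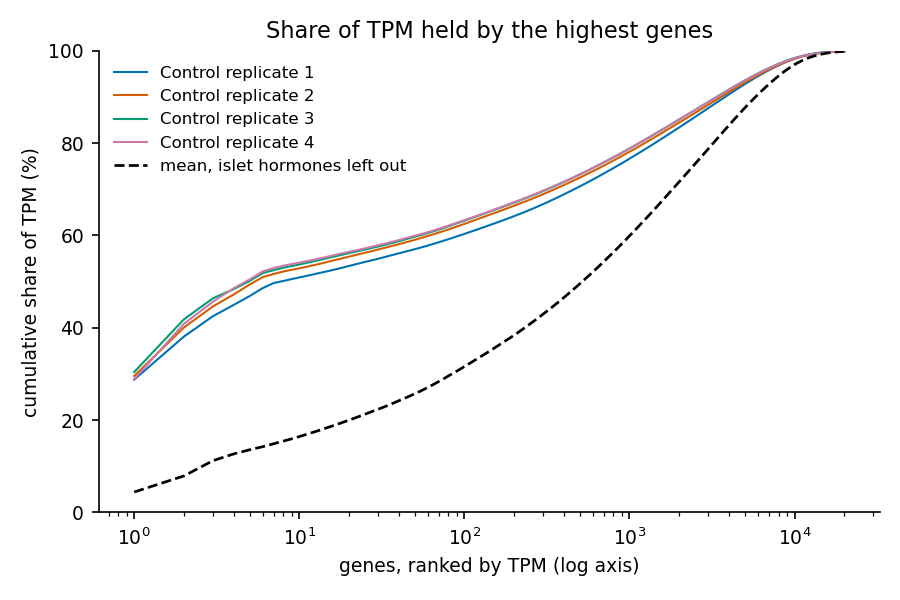
Cumulative share of TPM (percent) against the number of genes, ranked by TPM on a log axis, for each of the 4 Control libraries (lines) and for the mean with islet hormones left out (dashed). The 3 highest genes hold 44.8% of TPM on average and 3546 genes hold 90% of it. The dashed line reaches 50% only at 518 genes.

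The share given to insulin depends on how reads are divided by gene length. Counted as reads, Ins1 and Ins2 took 22.5% ± 1.38 of the reads in genes. With the merged exons of each gene, the length that recovers whole reads from the deposited TPM, they took 40.2%. With the median length of a gene's annotated transcripts, they took 50.2% ± 1.38. Ins2 is the gene that moves most, since its merged exons cover 1312 bases and its median transcript 479 bases. Ins2 exceeded Ins1 by 2.75 ± 0.282 times in deposited TPM, by 3.39 ± 0.348 times in reads and by 7.52 ± 0.771 times with transcript lengths (SD, n = 4). The order Ins2, Ins1, Iapp was the same by each of the 2 length rules. The ratio of Ins2 to Ins1 was 3.09, 2.81, 2.67 and 2.41 in replicates 1 to 4, so the 4 libraries differed in it by more than their total insulin share did.

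Only 6 genes held 50% of TPM, and 40 genes at 1000 TPM or more held 57.9%. Among the 30 highest genes were Chga (chromogranin A), Chgb (chromogranin B) and Scg2 (secretogranin II), acidic proteins that help to form the granule. Chga was at 18048 ± 1398 TPM and Scg2 at 4942 ± 558 TPM. Chgb was at 11047, 6902, 6207 and 7470 TPM, highest in replicate 1. G6pc2, the glucose-6-phosphatase of islets, was at 3485 ± 177 TPM. Cpe, the carboxypeptidase that trims the ends left by the convertases, was at 3123 ± 143 TPM. Resp18, a granule protein, was at 1806 ± 300 TPM. The chaperone Hspa5 (BiP) was at 2255 ± 527 TPM and the disulfide isomerase P4hb at 1766 ± 208 TPM. Acly, which makes acetyl-CoA from citrate, was at 1498 ± 262 TPM, and the antioxidant enzyme Gpx3 was at 1627 ± 450 TPM.

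The list of the 30 highest genes also held 7 genes not annotated as protein-coding, and all 7 overlapped another gene. Gm23935, a 57-base miRNA annotation inside Zc3h7a, stood at 24089 ± 5021 TPM and was the highest of the 7. Gm37376 stood at 18979 ± 1986 TPM opposite Malat1, the abundant nuclear RNA, which itself was at 1487 ± 163 TPM. Gm28902 stood at 3630 ± 584 TPM opposite Resp18, and Gm10252 at 2700 ± 194 TPM opposite Ftl1, the ferritin light chain. Strand is not recorded in such libraries, so these levels are uncertain: a read could belong to either gene of an overlapping pair. Of 3804 non-coding genes and pseudogenes at 1 TPM or more, 57.6% had a gene on the other strand, and those held 9.92% of TPM. Protein-coding genes held 88.5% ± 0.693 of TPM and 96.0% of the reads.

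**Figure D2:**
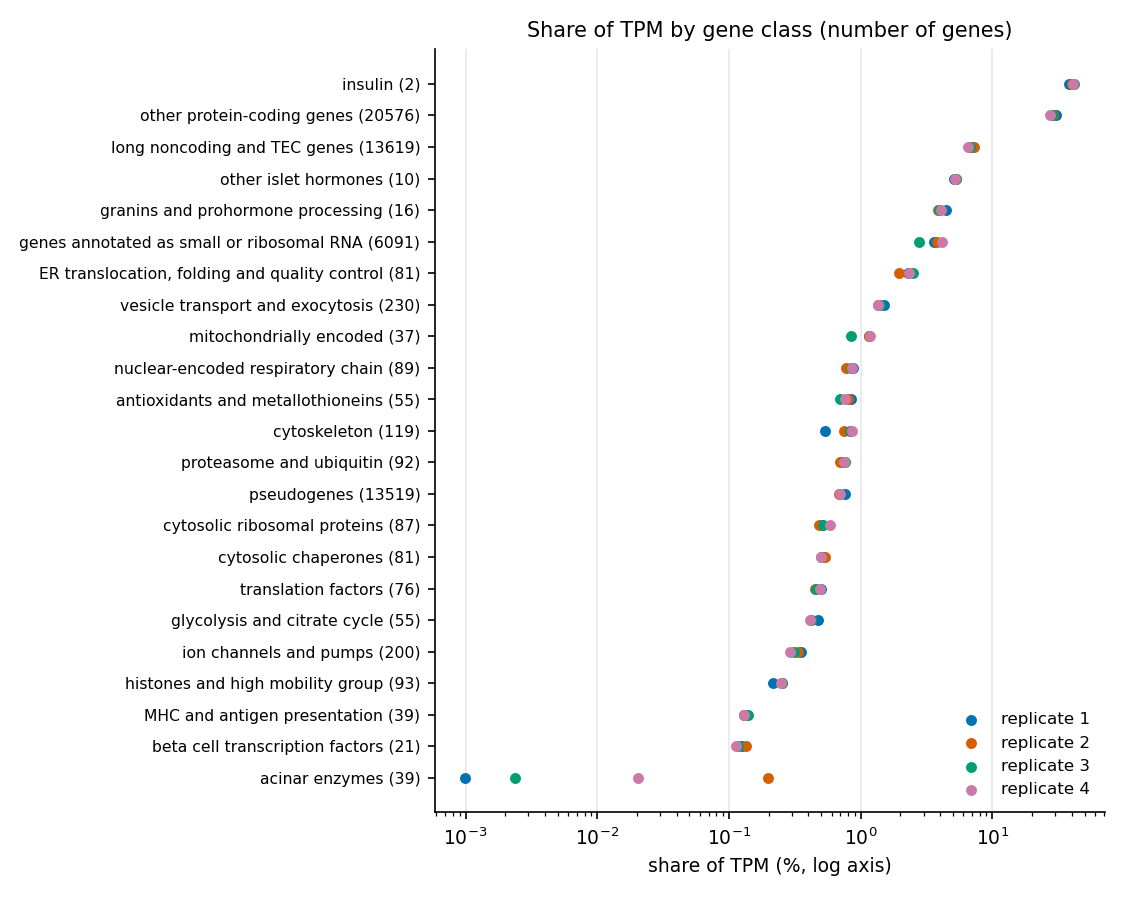
Share of TPM (percent, log axis) for each gene class, with the number of genes in brackets. Each point is 1 Control library, coloured by replicate. Insulin lies near 40% in all 4, and acinar enzymes spread from 0.000996 to 0.198%.

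Among the named classes of protein-coding genes, the machinery that makes and moves secretory protein came next. Genes of translocation, folding and quality control in the endoplasmic reticulum held 2.26% ± 0.221 of TPM, with 78 of 81 transcribed. Genes of vesicle transport and exocytosis held 1.40% ± 0.0710, with 186 of 230 transcribed. Transcripts of the mitochondrial genome held 1.08% ± 0.164, and the nuclear-encoded respiratory chain 0.841% ± 0.0449. The cytosolic ribosomal proteins held 0.525% ± 0.0459, less than the respiratory chain. The 21 transcription factors that define the beta cell held only 0.123% ± 0.00954, with 20 of 21 transcribed.

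Prohormone processing was carried by a clear set of members. Pcsk2, the convertase that cuts at the second junction of proinsulin, was at 842, 923, 990 and 850 TPM. Pcsk1, which cuts at the first, was at 587, 540, 515 and 527 TPM, and its range lay below that of Pcsk2. Pcsk2 overlaps Pcsk2os2 on the other strand, at 678 ± 49.6 TPM, so the level of Pcsk2 and this order are uncertain. The general convertase Furin was at 16.1 ± 2.94 TPM and Pcsk5 at 0.0118 ± 0.00919 TPM, so the granule convertases stood far above the rest of their family. Slc30a8, the zinc transporter of the granule, was at 760.3 ± 113 TPM, and the next of its family, Slc30a5, was at 49.5 ± 8.56 TPM. Scg5, the helper protein of Pcsk2, was at 522 ± 61.2 TPM, and Pcsk1n, the inhibitor of Pcsk1, at 476 ± 80.5 TPM. Ptprn, the granule membrane protein known as IA-2, was among the steadiest genes measured, at 304, 298, 303 and 298 TPM. It overlaps Gm28294 on the other strand, at 846 ± 23.2 TPM, so its level is uncertain.

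In 18 families of related genes, the member with the highest mean was also the highest in each of the 4 libraries. With transcript lengths the same member led in 17 of the 18. Among the glucose transporters, Slc2a5, known as a fructose transporter, was at 301, 302, 274 and 277 TPM. Slc2a2 was at 171, 207, 158 and 145 TPM, and the ranges of the 2 genes did not overlap. Slc2a1, the widely expressed carrier GLUT1, was at 20.7 ± 4.39 TPM, with a range that overlapped that of Slc2a8 at 23.3 ± 2.17 TPM. Slc2a4, the insulin-regulated transporter of muscle and fat, was detected in replicate 2 alone, at 0.0776 TPM.

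G6pc2 stood above G6pc3, the ubiquitous form, at 52.2 ± 7.63 TPM. The liver form, G6pc, was at 0 in 3 libraries and at 0.175 TPM in replicate 1.

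Members of the electrical circuit ranged widely in level. Abcc8, the regulatory subunit SUR1 of the ATP-sensitive potassium channel, was at 699, 609, 543 and 459 TPM. Kcnj11, the pore of that channel, was at 40.8, 41.0, 30.8 and 36.8 TPM, below Abcc8 in every library although the 2 subunits form the channel in equal number. Abcc9, the SUR2 of heart and muscle, was at 0.164 ± 0.0933 TPM. Among 10 voltage-gated calcium channel pores, Cacna1a was at 12.3 ± 1.12 TPM, Cacna1d at 5.72 ± 0.864 TPM and Cacna1c at 1.89 ± 0.296 TPM, and these 3 ranges did not overlap. The other 7 had means under 1 TPM. Kcnk16, a leak potassium channel of islets, was at 113 ± 31.1 TPM. For calcium storage, Atp2a3 was at 683 ± 115 TPM and Atp2a2 at 554 ± 30.1 TPM, with overlapping ranges.

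**Figure D3:**
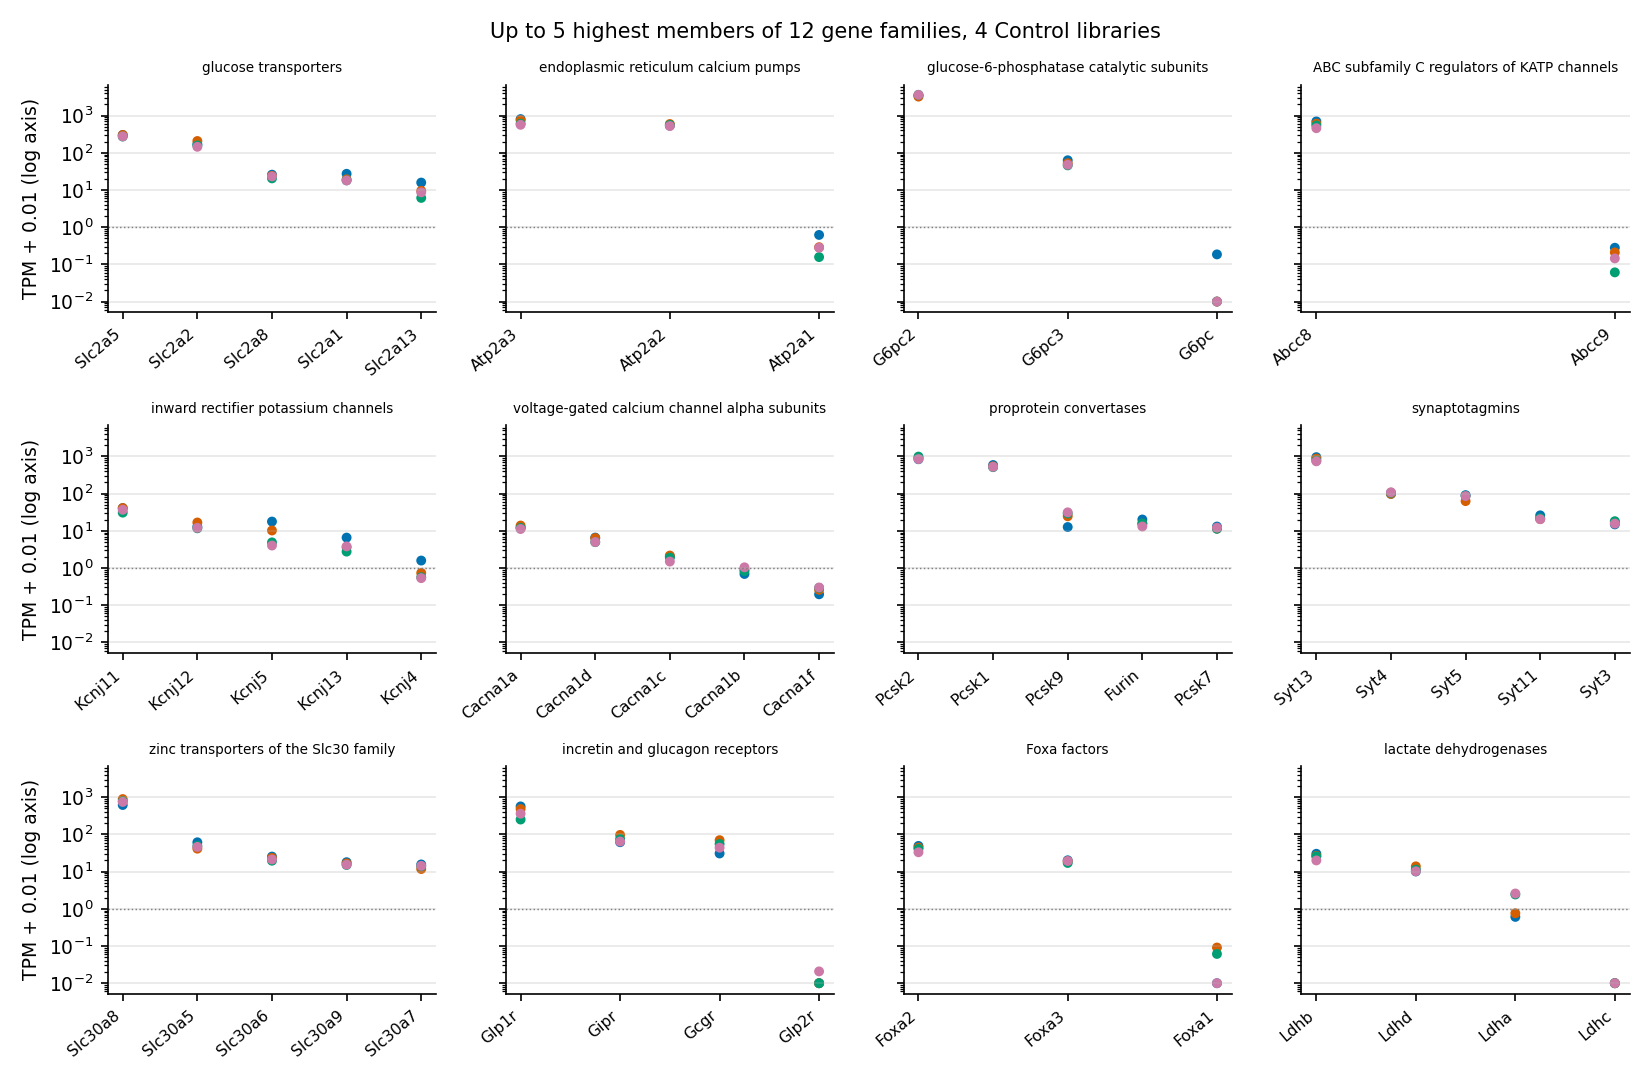
TPM + 0.01 (log axis) of up to 5 highest members in each of 12 families, with 1 point for each Control library in blue, orange, green and pink for replicates 1 to 4. The dotted line marks 1 TPM. Abcc8 and G6pc2 stand at least an order of magnitude above the next member of their family, whereas Slc2a5 and Slc2a2 lie close together.

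Exocytosis genes showed the same pattern of few high members. Of 35 genes of the machinery, 29 were transcribed and 2 were silent. Syt13, a synaptotagmin that lacks the calcium-binding residues, was at 956, 874, 770 and 740.3 TPM. Syt7, a calcium sensor of beta cell exocytosis, was at 13.7 ± 1.32 TPM, and Syt1, the sensor of neurons, at 0.348 ± 0.116 TPM. Rab3d was at 203 ± 12.6 TPM and Rab3a at 131 ± 17.6 TPM, both small GTPases of secretory vesicles. Vamp2, the vesicle SNARE, was at 101 ± 8.32 TPM. Its partners on the cell membrane, Snap25 at 56.7 ± 6.65 TPM and Stx1a at 6.70 ± 1.38 TPM, were lower. Cplx1, the complexin of neurons, was detected in replicate 2 alone, whereas Cplx2 was at 32.6 ± 5.92 TPM.

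Of 33 transcription factors of the beta cell, 29 had a mean of at least 1 TPM and 3 were silent. Neurod1 was at 158, 220, 189 and 176 TPM, and Neurog3, the factor of endocrine progenitors, at 0.928, 1.35, 1.27 and 0.674 TPM. Pdx1 was at 118 ± 14.3 TPM, Nkx6-1 at 96.7 ± 9.19 TPM and Isl1 at 89.4 ± 2.40 TPM. Nkx2-2 was at 60.04 ± 2.76 TPM and Pax6 at 46.96 ± 7.26 TPM. Pax4, the partner of Pax6 in islet development, was at 0 in all 4 libraries. Mafa was at 164, 162, 183 and 154 TPM. Foxa2 was at 41.9 ± 6.72 TPM, Foxa3 at 18.9 ± 1.28 TPM and Foxa1 at 0.0331 ± 0.0401 TPM.

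Receptors that tune insulin release were led by Glp1r, the receptor of the incretin GLP-1, at 568, 483, 252 and 362 TPM. It spread more than 2-fold between libraries, with replicate 3 lowest. Gipr, the receptor of the other incretin, was at 61.9 to 97.2 TPM, below Glp1r in every library. Gcgr, the glucagon receptor, was at 30.8 to 70.2 TPM, and Glp2r was detected in replicate 4 alone, at 0.0108 TPM. Prlr, the prolactin receptor, was at 171 ± 16.5 TPM, and Adra2a, the adrenergic receptor that inhibits release, at 109 ± 10.1 TPM. Galr1, the galanin receptor, was the steadiest of the 25 receptors, at 37.6 to 40.6 TPM.

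A list of 27 genes known as disallowed in mature beta cells gave 9 with a mean of at least 1 TPM and 5 silent, with a median of 0.531 TPM. Among all protein-coding genes, 52.0% had a mean of at least 1 TPM and 32.1% were silent. Of the 9, 5 had a mean of at least 10 TPM, so the members near 0 named here do not stand for the whole list. Slc16a1, the lactate and pyruvate carrier that is the textbook example, was at 0, 0.183, 0.154 and 0.255 TPM. Ldha, the lactate dehydrogenase of muscle, was at 0.597, 0.750, 2.42 and 2.57 TPM, higher in replicates 3 and 4. Rest, the repressor of neuronal genes, was at 0.145 ± 0.0463 TPM, and Pdgfra was at 0 throughout. Oat was at 19.3 TPM in replicate 1 and at 7.36 to 10.2 TPM in the others. Ldhb led its family at 25.6 ± 4.21 TPM, and Ldhc, the form of the testis, was at 0 throughout.

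Of the 21974 protein-coding genes, 11422 (52.0%) were transcribed and 7044 (32.1%) were silent. Of the silent genes, 5310 were at 0 in all 4 libraries. A gene of 1 kb at 1 read in replicate 1 lies above the threshold of 0.1 TPM, so a silent gene of that length had no read there. Whole families of sensory receptors were off: 1110 of 1135 olfactory receptors (97.8%) and 328 of 331 vomeronasal receptors (99.1%) were silent. The highest olfactory receptor, Olfr330, was at 5.14, 2.70, 0.937 and 1.12 TPM. Of 39 Hox genes, which pattern the body axis, 38 were silent, and Hoxb2 reached 0.186 TPM in replicate 2. All 34 secretoglobins, secreted by airway and glands, were silent. By contrast, 37 of 39 proteasome subunits, 54 of 69 Rab GTPases and 287 of 365 zinc finger genes were transcribed.

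In families with many silent members, some members stood out, and these were named after their values were seen. Of 64 defensins, 61 were silent, and Defb1, an antimicrobial peptide of epithelia, was at 50.2, 76.1, 81.5 and 71.2 TPM. Of 19 Wnt ligands, 14 were silent, and Wnt4 was at 128, 115, 118 and 121 TPM. Of 53 keratins, 37 were silent and 7 had a mean of at least 1 TPM, and the simple epithelial pair Krt8 and Krt18 were at 762 ± 362 and 655 ± 169 TPM. Krtap13-1, annotated as a hair keratin-associated protein, was at 8.64 to 16.2 TPM. Of 37 sarcomere genes of muscle, 20 were silent and 6 had a mean of at least 1 TPM, among them Actn2 and Neb, which were at 11.8 to 22.6 and at 7.57 to 14.8 TPM. Of 19 crystallins, 10 were silent and 4 had a mean of at least 1 TPM, and Crybb3, a crystallin of the lens, was at 1.88 TPM in replicate 1 and at 22.4, 19.6 and 15.1 TPM in the others. Crybb3, Actn2, Defb1, Krt8 and Krt18 were each lowest in replicate 1, Wnt4 and Neb were highest there, and Krtap13-1 lay between.

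Other islet hormones were present at low shares. Gcg, the glucagon gene of alpha cells, was at 1889, 2036, 2516 and 1217 TPM. Ppy, of PP cells, was at 2403, 2969, 2008 and 1179 TPM, and Sst, the somatostatin gene of delta cells, stood at 1322, 864, 958 and 578 TPM. Pyy was at 978, 874, 802 and 510.4 TPM. All 4 were lowest in replicate 4. Of 13 alpha cell markers found, 10 had a mean of at least 1 TPM and 6 of at least 10 TPM. Of 12 delta cell markers, 5 had a mean of at least 1 TPM, 4 of at least 10 TPM, and 3 were silent. Among all protein-coding genes, 52.0% had a mean of at least 1 TPM. Irx2, a transcription factor of alpha cells, was far lower than Gcg, at 0.382 to 1.12 TPM. Hhex, the factor of delta cells, was at 1.05 to 1.45 TPM. Ghrl, of epsilon cells, was at most 0.348 TPM. Ppy was above Gcg in replicates 1 and 2 and below it in replicates 3 and 4.

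Acinar cell transcripts came from a single library for the most part. The sum of 34 acinar markers was 122.7, 2024, 115 and 292 TPM. Bhlha15, one of the 34, is also a factor of other secretory cells and was at 113, 51.4, 91.3 and 89.7 TPM. Prss2, a trypsinogen, was at 0.520, 293, 2.82 and 26.4 TPM, and Try5, another trypsinogen, at 0.470, 228, 1.13 and 7.99 TPM. Trypsinogen genes are near-identical copies, so reads may be split between them and single levels are uncertain. Ptf1a, the factor that defines the acinar cell, was detected in replicate 2 alone, at 0.0358 TPM. Without replicate 2 the mean sum was 176 TPM, against 638 TPM with it. The acinar enzymes held 0.0556% of TPM on average and 0.00795% without replicate 2.

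**Figure D4:**
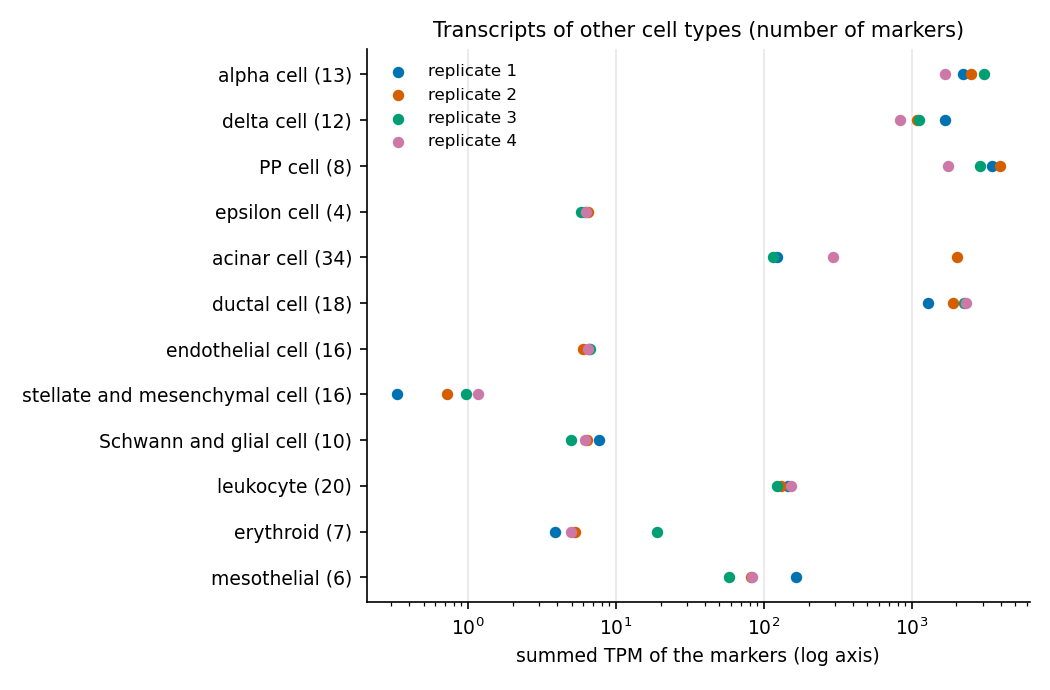
Summed TPM (log axis) of the markers of each other cell type, with the number of markers in brackets. Each point is 1 Control library, coloured by replicate. Alpha, PP and delta cell sums exceed 800 TPM in every library, acinar markers reach 2024 TPM in replicate 2, and stellate and mesenchymal markers stay at or below 1.16 TPM.

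The listed markers of vessels and connective tissue were almost absent. For scale, 32.1% of all protein-coding genes were silent and 52.0% had a mean of at least 1 TPM. The 16 endothelial markers summed to 5.98 to 6.65 TPM, 10 of the 16 were silent, and Cdh5, Erg, Robo4 and Sox17 were at 0 in all libraries. The 16 stellate and mesenchymal markers summed to 0.330 to 1.16 TPM, with none at a mean of 1 TPM and Pdgfra and Col5a1 at 0. Outside that list, Col5a2 was at 12.2, 5.69, 0.951 and 2.02 TPM. Of 44 collagens, 7 (15.9%) had a mean of at least 1 TPM and 20 were silent. Of 10 Schwann and glial markers, 5 were silent and Sox10, Cdh19 and Foxd3 were at 0. Of 6 mesothelial markers, 5 were silent, and Msln alone was present, at 163, 81.7, 58.1 and 82.7 TPM.

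Of 20 leukocyte markers, 8 had a mean of at least 1 TPM, as did 52.0% of all protein-coding genes. Among the 8, 1 stood far above the rest. C1qa, a chain of complement C1q, was at 103, 102, 92.2 and 121 TPM. Next came Fcer1g, a chain of Fc receptors, at 23.7, 12.2, 13.2 and 13.98 TPM, then Csf1r and Lyz2, both of myeloid cells, at 4.95 ± 1.16 and 3.24 ± 0.646 TPM. Its partner chains were not at that level, with C1qb at 2.85, 1.44, 0.627 and 0.461 TPM and C1qc at 0.162 to 0.615 TPM. Ptprc, the pan-leukocyte gene CD45, was at 0.0231, 0.0442, 0.507 and 0.831 TPM. The T cell gene Cd3e was at 0, 0.0265, 0.648 and 0.952 TPM. Immunoglobulin and T cell receptor genes and gene segments, 696 with pseudogenes included, summed to 7.66, 11.1, 61.7 and 104 TPM. These lymphoid values were higher in replicates 3 and 4 than in replicates 1 and 2, without overlap, and C1qb was higher in replicates 1 and 2. Haemoglobin genes were low, with Hba-a1 at 13.6 TPM in replicate 3 and at 1.91 to 2.47 TPM in the others.

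Of 18 ductal markers, 11 had a mean of at least 1 TPM and 2 were silent. Those shares were 52.0% and 32.1% among all protein-coding genes. Krt8, Krt18 and Epcam, which are shared by simple epithelia, were at 254 TPM or more in every library. Krt7 was at 75.8 ± 6.99 TPM and Cldn3 at 64.5 ± 14.1 TPM, and both overlap a gene on the other strand. Sox9, the ductal and progenitor factor, was at 0.136 to 0.683 TPM, Krt19 at 0 to 1.31 TPM, and Onecut1 at 0 throughout. How much of any of these levels came from other cells was not tested.

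Transcripts of cell division were present. All 30 proliferation genes were detected, 28 with a mean of at least 1 TPM, and their median was 3.56 TPM. Among all protein-coding genes, 52.0% had a mean of at least 1 TPM. Mki67 was at 2.46, 1.53, 2.29 and 1.82 TPM, and Top2a at 2.91, 1.38, 4.21 and 3.41 TPM. Pcna and E2f1 were the 2 highest, at 32.6 ± 4.65 and 27.9 ± 4.37 TPM. Mki67 was highest in replicate 1 and Top2a in replicate 3, and both were lowest in replicate 2.

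Chd4, the gene the study deleted in other mice, was at 15.98, 13.4, 11.1 and 12.3 TPM in these controls. All 14 genes of the NuRD complex, which joins nucleosome movement to histone deacetylation, were transcribed. Rbbp7, a histone-binding subunit, led at 197 ± 34.1 TPM. Chd3, a second motor subunit, was at 10.6 ± 1.83 TPM and Chd5, another, at 1.57 ± 0.321 TPM. Eif2s3y, on the Y chromosome, was at 31.6 to 37.3 TPM in every library and Xist was at most 0.0618 TPM, so the 4 libraries were alike in sex-linked genes.

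Spread between the 4 mice was small for most genes. The coefficient of variation (CV, the SD as a share of the mean) had a median of 11.2% over 7363 genes with a mean of at least 10 TPM. It was under 10% for 3133 of them (42.6%) and over 50% for 125 (1.70%). Counting error alone gives a median CV of 3.08% at 10 to 100 TPM, where the median CV was 11.3%, and of 1.37% at 100 to 1000 TPM, where it was 10.2%. At 1 to 10 TPM the median CV was 21.1%, against 9.20% from counting. Without replicate 1 the median CV was 7.68%.

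The steadiest genes at a mean of at least 50 TPM were of mixed function. Atp6v0b, a subunit of the proton pump that acidifies granules, was at 221, 218, 220 and 221 TPM, a CV of 0.688%. A second subunit, Atp6v0d1, was at 176 ± 1.99 TPM. Snx32, Tmbim4, Tusc3, Oaz1, Cst3 and Psmd4 also had a CV under 1.4%. Atp6v0b, Snx32 and Tmbim4 each have a gene on the other strand, so their levels are uncertain. By class, antioxidants and metallothioneins had a median CV of 8.35% and the respiratory chain one of 8.64%. Beta cell transcription factors had one of 13.1% and the mitochondrial genome one of 19.6%.

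Replicate 1 stood apart from the other 3. Across genes at a mean of at least 1 TPM, its correlation with the others on the log2 scale was 0.951 to 0.957, against 0.973 to 0.984 among replicates 2, 3 and 4. Genes are not independent replicates, and these values only describe the libraries. Of 1894 genes at 50 TPM or more, 44 lay more than 2-fold below every other library in replicate 1, against 2, 2 and 0 in replicates 2, 3 and 4. Replicate 1 also had the fewest reads in genes and the lowest insulin share.

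Immediate early genes, which cells switch on within minutes of a stimulus, were among the genes low in replicate 1. Of all 1894 genes at 50 TPM or more, 76 lay more than 1.5 times below every other library there. Of the 16 immediate early genes at that level, 14 were among the 76. Fos was at 640.2, 2715, 2685 and 1687 TPM. Atf3, a stress-induced factor, was at 20.4, 591, 765 and 703 TPM, and Nr4a1, an orphan nuclear receptor induced by glucose and cAMP, was at 20.3, 556, 479 and 449 TPM. Junb was at 264, 950.2, 912 and 663.6 TPM, and Egr1 at 208, 672, 513 and 406 TPM. Npas4, which depends on calcium entry, was at 11.4, 88.0, 67.4 and 80.5 TPM. Of 27 such genes found, 26 were lowest in replicate 1, where 18.7% of all genes at 1 TPM or more were lowest. The exception, Myc, was highest there at 37.0 TPM against 11.6 to 16.3 TPM. Summed over the 27 genes, the level was 2767, 10140, 10031 and 7447 TPM, so replicates 2, 3 and 4 averaged 3.33 times replicate 1.

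**Figure D5:**
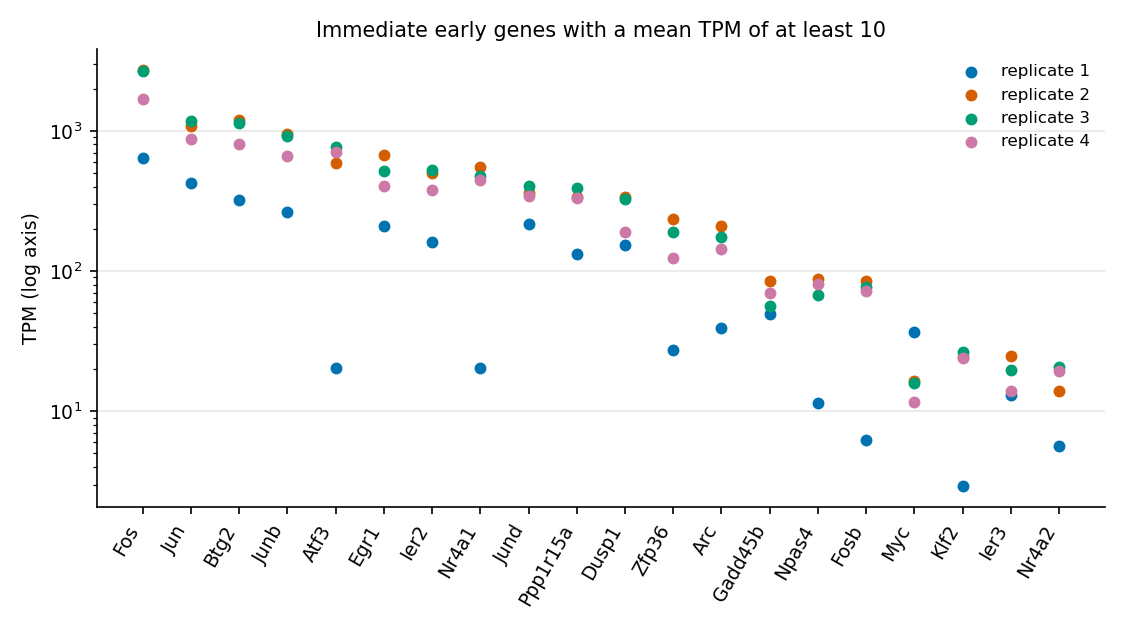
TPM (log axis) of the 20 immediate early genes with a mean of at least 10 TPM, each point 1 Control library, coloured by replicate. Replicate 1 (blue) is lowest for 19 of the 20, and Myc is the exception. Atf3, Nr4a1 and Fosb show the widest gaps.

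Other genes were also lowest in replicate 1. Socs3, a cytokine-induced inhibitor, was at 22.8, 248, 243 and 144 TPM. Krt8 was at 254, 750.0, 1003 and 1042 TPM, and the cytoskeletal class as a whole held 0.539% of TPM in replicate 1 against 0.750 to 0.863%. Ucn3, a hormone of mature beta cells, was at 297, 621, 622 and 531 TPM. Chd7, a chromatin remodeller, was at 19.9, 91.3, 84.9 and 91.7 TPM. Neat1, a nuclear RNA, was at 20.4, 93.2, 95.6 and 82.1 TPM. Of the 22 mature beta cell markers, 8 (36.4%) were lowest and 7 (31.8%) highest in replicate 1. Of all genes at 1 TPM or more, 18.7% were lowest and 53.3% highest there. Ins1, Ins2 and Iapp were each lowest in replicate 1. The part of depth in these differences was not tested.

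More genes were highest in replicate 1 than in any other library. Of the 1894 genes at 50 TPM or more, 1060 (56.0%) were highest and 327 (17.3%) lowest there, and 24 lay more than 1.5 times above every other library. Esr1, the oestrogen receptor gene, was at 1061, 378, 353 and 315 TPM. Tamoxifen-inducible Cre proteins carry part of an oestrogen receptor, the labels name no transgene, and reads from one sharing this sequence could not be told apart from those of the gene. Cldn8, a tight junction protein, was at 661, 337, 170 and 219 TPM, and Tnfrsf11b, a decoy receptor, at 344, 153, 108 and 184 TPM. Tph1, which makes serotonin in beta cells under prolactin, was at 335, 172, 112 and 164 TPM. Cish, a target of growth hormone and prolactin signals, was at 285, 192, 119 and 134 TPM. In a list of 15 genes that respond to those hormones, drawn up after these values had been seen, 12 were highest in replicate 1. Of all genes at 1 TPM or more, 53.3% were also highest there. Cldn8, Tnfrsf11b, Tph1 and Cish are on that list, so their choice partly set the count. Socs3, also listed, was lowest in replicate 1 at 22.8 TPM, against 144 to 248 TPM in the others. Prlr itself was at 190.1, 149.99, 174 and 169 TPM, a narrower spread.

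Replicate 2 was marked by the acinar enzymes and by a few clock genes. Nr1d1, a repressor of the circadian clock, was at 26.8, 165, 62.3 and 88.7 TPM. Dbp, an output gene of the clock, was at 10.8, 36.4, 14.6 and 22.2 TPM, and Arntl, which runs in opposite phase, at 12.6, 6.20, 11.7 and 9.26 TPM. Of 19 clock genes, listed after these values had been seen, 10 were highest in replicate 2, where 20.8% of all genes at 1 TPM or more were highest. In replicate 1, 8 of the 19 were lowest, Nr1d1 and Dbp among them. Of all genes at 1 TPM or more, 18.7% were lowest there. Of the 19, 4 were highest in replicate 1, and 3 were lowest in replicate 2. Nr1d1 overlaps Thra on the other strand, so its level is uncertain. The labels give no time of collection. The sum of 11 heat shock genes was 2436 TPM in replicate 2 against 2117 to 2127 TPM, and 8 of the 11 were highest there while the other 3 were highest in replicate 1. Hspa1a was at 115 TPM in replicate 2 against 50.1 to 74.1 TPM, and Dnajb1, a co-chaperone, at 225 TPM against 66.5 to 207 TPM.

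Replicate 3 had the lowest share of mitochondrial transcripts, 0.836% against 1.16 to 1.17%, and the highest level of Hspa5. Hspa5 was at 1751, 1906, 2898 and 2463 TPM, and the sum of 28 genes of the unfolded protein response was 13255, 12070, 15470 and 14505 TPM. Herpud1, a target of that response, was at 471, 785, 983 and 1055 TPM, and Creld2 at 295, 277, 419 and 365 TPM. All 28 genes of the list were transcribed. Xbp1, a factor of the response, was at 527 ± 32.1 TPM without that order. Replicates 3 and 4 were above replicates 1 and 2 for the sum, for Hspa5, for Herpud1 and for Creld2. Gene by gene the list did not share that order. Of the 28, 12 (42.9%) were highest in replicate 1, 10 (35.7%) in replicate 3, 4 (14.3%) in replicate 4 and 2 (7.14%) in replicate 2. Of all genes at 1 TPM or more, 53.3% were highest in replicate 1, 14.3% in replicate 3, 11.7% in replicate 4 and 20.8% in replicate 2. In replicate 2, 16 of the 28 (57.1%) were lowest, against 22.8% of all genes at 1 TPM or more.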

How the data were processed

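For each library the authors deposited TPM over 55487 Ensembl gene identifiers. Per the labels' protocols, RNA of integrity above 8 went through low-input SMART-Seq v4 amplification and a Nextera XT preparation. These kits, as commonly used, keep no strand. The submitters' processing notes list the tools FastQC, Trimmomatic, HISAT2 and HTSeq, with DESeq2, and the build mm10, without roles or versions. No annotation release is given in those notes. Symbols, biotypes and positions came from GENCODE mouse release M21, which held 55227 of the identifiers (99.5%).

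TPM times merged exon length was a whole multiple of 1 step for 98.6% of values within 0.05 reads, which gave the reads per library. Levels were averaged over the 4 Control libraries with the SD. No groups were compared, since 1 group was used, and Dixon's gap criterion served only to pick out values with 1 library apart. The calculations ran in Python 3.11.15 (numpy 2.4.6, pandas 2.3.3, matplotlib 3.10.9) and were tested on simulated data.

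The rule for named genes took the 30 with the highest mean, the highest members of each list, class and family, list members at 0, and the genes with the highest and lowest CV at 50 TPM or more. Only some of these are printed. Genes outside the rule, among them Chd7, Neat1, Tph1, Cish, Tnfrsf11b, Dbp and Arntl, were chosen after their values were seen. Members and lists were chosen with earlier results of these data known. The casein pattern was corrected after the files were seen, because it had also taken casein kinases. Alternatives left out each library, used medians, other thresholds, other scalings, reads and other gene lengths.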

Additional observations from a re-analysis of the deposited data

Results flagged for a closer look

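Of 246 values examined across the 4 libraries, 23 had 1 library far from the other 3 relative to the whole range. Chance sets apart about 1 in 20 groups of values that were not chosen for their spread. That rate cannot be set against the 23, because many of the genes were named for their values, and because 5 of the 23 are genes at 0 in 3 libraries, for which the gap is the whole range by construction. With 4 libraries this measure says nothing of the size of the gap.

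Replicate 1 was apart for 9 values. Pseudogenes held 0.753% of TPM there against 0.687 to 0.698%, and glycolysis and citrate cycle genes 0.472% against 0.412 to 0.419%. Esr1 was at 1061 TPM against 315 to 378 TPM, and Slc2a1 at 27.2 TPM against 18.1 to 19.4 TPM. Chd7 was at 19.9 TPM against 84.9 to 91.7 TPM, Fosb at 6.20 TPM against 72.4 to 84.4 TPM and Scg5 at 431 TPM against 544 to 559 TPM. Fcer1g was at 23.7 TPM against 12.2 to 13.98 TPM. G6pc was at 0.175 TPM and at 0 in the others.

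Replicate 2 was apart for 8 values. The acinar enzymes held 0.198% of TPM there against at most 0.0205%, and the acinar markers summed to 2024 TPM against 115 to 292 TPM. Prss2 was at 293 TPM against at most 26.4 TPM and Try5 at 228 TPM against at most 7.99 TPM. Heat shock genes summed to 2436 TPM against 2117 to 2127 TPM. Cplx1 was at 0.0986 TPM, Ptf1a at 0.0358 TPM and Slc2a4 at 0.0776 TPM, each at 0 in the others.

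Replicate 3 was apart for 4 values. Mitochondrially encoded genes held 0.836% of TPM against 1.16 to 1.17%, and genes of antigen presentation 0.139% against 0.130% in each of the others. Erythroid markers summed to 18.9 TPM against 3.87 to 5.25 TPM, and Hba-a1 was at 13.6 TPM against 1.91 to 2.47 TPM. Replicate 4 was apart for Atp6v0d1, at 179 TPM against 174.5 to 174.8 TPM, and for Glp2r, at 0.0108 TPM and at 0 in the others.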

How the results depend on the processing

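Of 95 alternatives to 12 main results, 71 stayed close to the reported value and 24 moved. Close meant within 1 SD for shares and marker sums, and within 1.5 times for a count. The median CV was judged by a set fraction of its own value. For class shares and marker sums, leaving out 1 library or taking the median cannot shift the value by 1 SD. Those settings were close by construction and say nothing about how stable the results are. As a share of reads, insulin was 22.5%, other islet hormones 2.27%, granins 5.09%, ribosomal proteins 0.405% and mitochondrial transcripts 0.538%, so other islet hormones fell below granins. With median transcript lengths, chosen after seeing the data, they were 50.2, 3.32, 2.87, 0.604 and 0.595%, so ribosomal proteins passed mitochondrial transcripts. With protein-coding genes only in the total, also chosen after seeing the data, insulin was 45.4%, other islet hormones 5.89%, granins 4.61% and ribosomal proteins 0.593%. At 0.1 TPM 22925 genes were counted and at 5 TPM 10050. Without islet hormones and mitochondrial genes, 5851 genes held 90% of TPM. The median CV was 15.1% over genes at 1 TPM or more, 9.60% with median-of-ratios scaling, and 7.68 to 11.7% when 1 library was left out. The silent share of olfactory receptors was 94.3% at 0 TPM, 99.7% under 1 TPM, and 97.9 to 98.3% when 1 library was left out. For gene length and reads, the construction of the alternative shows the cause; elsewhere the cause was not tested. No paired analysis was possible because no result comes from a test and only 1 group was used. Low depth limits genes under 1 TPM most.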

Other observations

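A set of 260 identifiers was not found in the annotation release used and has no symbol here. They held 0.0609 to 0.0967% of TPM, and 19 of them had a mean of at least 1 TPM. The highest had a mean of 662.5 TPM and the next one 30.4 TPM.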
